A study of Saccharomyces cerevisiae with 8 samples.

Results

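The respiratory chain and the ATP synthase of budding yeast (Saccharomyces cerevisiae) were followed through 39 nuclear genes, listed by systematic name for their place in these complexes, of 6692 genes in the count table. They comprise the 3 single-protein NADH dehydrogenases NDI1, NDE1 and NDE2, the 4 succinate dehydrogenase subunits SDH1 to SDH4, and 9 subunits of complex III (COR1, QCR2, QCR6, QCR7, QCR8, QCR9, QCR10, RIP1 and CYT1). They also comprise the cytochrome c isoforms CYC1 and CYC7, 9 subunits of complex IV (COX4, COX5A, COX5B, COX6, COX7, COX8, COX9, COX12 and COX13) and 12 subunits of the ATP synthase (ATP1, ATP2, ATP3, ATP4, ATP5, ATP7, ATP14, ATP15, ATP16, ATP17, ATP18 and ATP20). All 39 matched the R64 annotation, all passed the filter on low counts, none overlapped another annotated gene, and none had a copy elsewhere in the genome with at least 95% identity over 50% of its length.

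RNA was sequenced from 8 libraries, 2 in each of 4 groups formed by genotype (wildtype or RAD27 knockout) and growth temperature (30 or 37 °C, called unheated and heated from here on). The product of RAD27 is a flap endonuclease that acts on Okazaki fragments in DNA replication, and the study asked how its loss changes gene expression. All cultures grew overnight at 30 °C in YPD, a rich glucose medium, and were then diluted and kept for 4 hours at their temperature before harvest. The labels give no strain background, knockout allele or ploidy, and do not say whether the 2 libraries of a group came from separate cultures. The p-values therefore measure only the spread between these samples. RAD27 had 533, 531, 511 and 479 counts in the 4 wild-type libraries and 0 in each knockout library. Libraries held 4734266 to 5588983 counts. The 39 genes together drew 0.626% and 0.659% of all counts in wild type at 30 °C and 0.422% and 0.438% at 37 °C. In the knockout they drew 0.571% and 0.628% at 30 °C and 0.719% and 0.772% at 37 °C. Heated wild-type cells thus had the lowest share and heated knockout cells the highest. These are shares of raw counts. By the scaled levels used below, the 39 had a median log2 level of -0.03 and 0.04 in heated knockout against unheated wild type.

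The respiratory chain passes electrons from NADH and succinate through ubiquinone, complex III and cytochrome c to complex IV, which reduces oxygen, and the ATP synthase uses the resulting proton gradient to make ATP. Budding yeast has no proton-pumping complex I and uses single-subunit NADH dehydrogenases instead. In glucose the cells ferment, and many of these genes are held down by glucose repression. The Hap2/3/4/5 complex activates many of them through CCAAT sequences, Hap1 does so in response to heme, and Rox1 represses the hypoxic genes when oxygen is present.

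The sequences these regulators are known to recognise were looked for in the 300 bases before each start codon, on both strands, in the R64 genome. CCAAT, searched on both strands, was found in 33 of the 39 windows, or 84.6%, against 41.8% of the 5987 windows searched. At least 2 matches stood in 17 of the 39 windows, against 10.1% of all windows. The 6 members without a match were COR1, CYT1, COX4, CYC1, CYC7 and NDE2. AGGGG, the core of the stress response element, was found in 17 of the 39 windows against 22.2% of all, and ATTGTT, a core of Rox1 sites, in 17 against 34.2%. The Hap1 pattern CGGNNNTANCGG was found in 1 member, QCR6, and in 0.134% of all windows. A match describes letters only, and no match says only that these letters are not in this window. The stretches below are from members whose levels the results turn on, together with COX6, ATP5 and QCR6 as further examples. They were picked after the matches were known, are written 5′ to 3′ on the strand of the gene, and have the match in capitals; the first 5 show CCAAT or its reverse complement, COX5B the reverse complement of ATTGTT, CYC7 and NDE2 AGGGG or its reverse complement, and QCR6 the Hap1 pattern. The CCAAT of ATP5 overlaps an ATTGTT match by 2 letters.
SDH2, chrXII:54070-54095, minus strand: tcgcattggcCCAATtagctccggtg
NDI1, chrXIII:29877-29902, minus strand: gttttaactaCCAATtgaggagtttc
COX6, chrVIII:209480-209505, plus strand: aagggacctaATTGGtccggtcaaag
COX5A, chrXIV:531570-531595, plus strand: ctcgtttgtgATTGGccctacgtttt
ATP5, chrIV:1058962-1058987, minus strand: atttcaaacgCCAATtgttaactttg
COX5B, chrIX:155131-155156, plus strand: tgttgcattaAACAATagaccaatta
CYC7, chrV:80154-80179, minus strand: agtggccgcaAGGGGcaaagacaaag
NDE2, chrIV:303063-303088, plus strand: aataagtcagCCCCTccctttggagt
QCR6, chrVI:224976-225001, minus strand: cacgttcCGGGCATATCGGactgggg

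Levels are given as CPM, the counts of a gene scaled to a common library total, on TMM-scaled library sizes. This scaling takes most genes as unchanged. With heat in the knockout, edgeR's quasi-likelihood test called 1751 of 5667 genes higher and 1596 lower (adjusted p under 0.05), against 2320 not called. At 37 °C it called 1731 higher and 1656 lower in the knockout than in wild type, against 2280 not called. Most genes were thus called as changed in these comparisons, and counts with other scalings are given below. Between genes, levels are compared only as CPM per kilobase of coding length. On that scale ATP2, the catalytic beta subunit of the ATP synthase, was the highest member in unheated wild type with a mean of 908 CPM per kilobase, followed by ATP1, the alpha subunit, with 601 and NDE1, an external NADH dehydrogenase, with 507. The lowest were NDE2, the second external NADH dehydrogenase, with 2.19, and CYC7, the second cytochrome c isoform, with 6.56. Next above them were SDH1, the flavoprotein subunit of succinate dehydrogenase, with 52.7 and NDI1, the internal NADH dehydrogenase, with 61.0 CPM per kilobase.

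**Figure D1:**
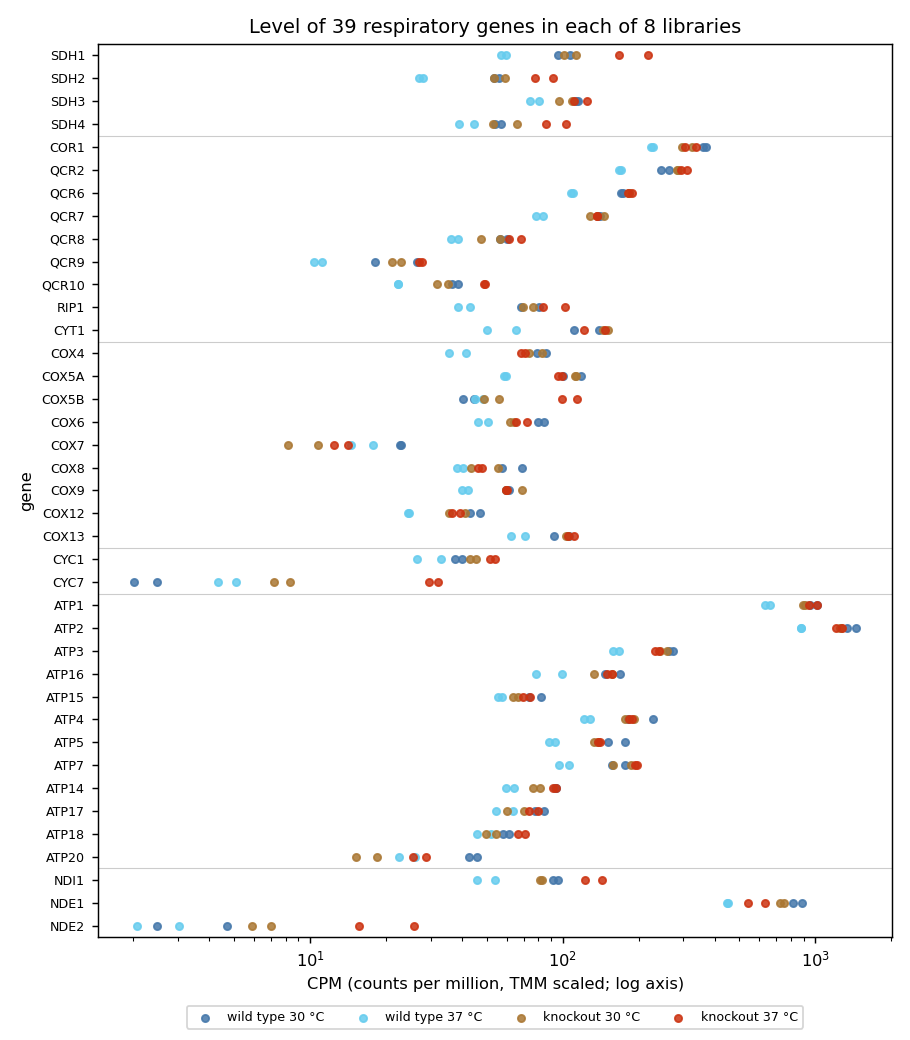
Level of each of the 39 genes in each of the 8 libraries, as TMM-scaled CPM on a log axis and not divided by length, with genes grouped by complex and colours marking the 4 groups. In most rows the heated wild-type points lie lowest. The heated knockout points lie highest in the CYC7, NDE2, COX5B, NDI1, SDH1, SDH2 and SDH4 rows. They also lie highest in the QCR2, QCR8, QCR9, QCR10, RIP1, CYC1, ATP7 and ATP18 rows.

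Heat lowered nearly the whole set in wild type. At 37 against 30 °C, 36 of the 39 genes fell and 1 rose (edgeR's quasi-likelihood test, Benjamini-Hochberg adjusted p under 0.05 over 5667 genes), where 17.1% of all genes tested fell and 15.7% rose. The median log2 fold change of the 39 was -0.70, against 0.01 for all genes. Every subunit of succinate dehydrogenase, complex III and the ATP synthase fell, as did 8 of 9 complex IV subunits, NDI1, NDE1 and CYC1. CYC7 rose, and COX5B (the hypoxic subunit Vb, 0.14 ± 0.12) and NDE2 (-0.47 ± 0.52) did not pass the threshold. Without any 1 of the 4 wild-type libraries, or with DESeq2, the rise of CYC7 no longer passed, and the count of members that fell lay between 31 and 36.

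In the knockout few of these genes fell. At 37 against 30 °C in the knockout, 14 of the 39 genes rose, 1 fell and 24 did not pass, where 30.9% of all genes tested rose and 28.2% fell. The median log2 fold change of the 39 was 0.14, against 0.04 for all genes. Those that rose were SDH1, SDH2 and SDH4, QCR8, QCR10 and RIP1, COX5B and COX7, CYC7, ATP14, ATP18 and ATP20, and NDI1 and NDE2, and the 1 that fell was NDE1. The count depended on scaling. With library size alone 31 members rose and NDE1 no longer passed, while over all genes the split moved from 1751 higher and 1596 lower to 2803 and 842, and the median of all genes moved to 0.27. The median of the 39 with library size alone was 0.38, against 0.14 with TMM.

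**Figure D2:**
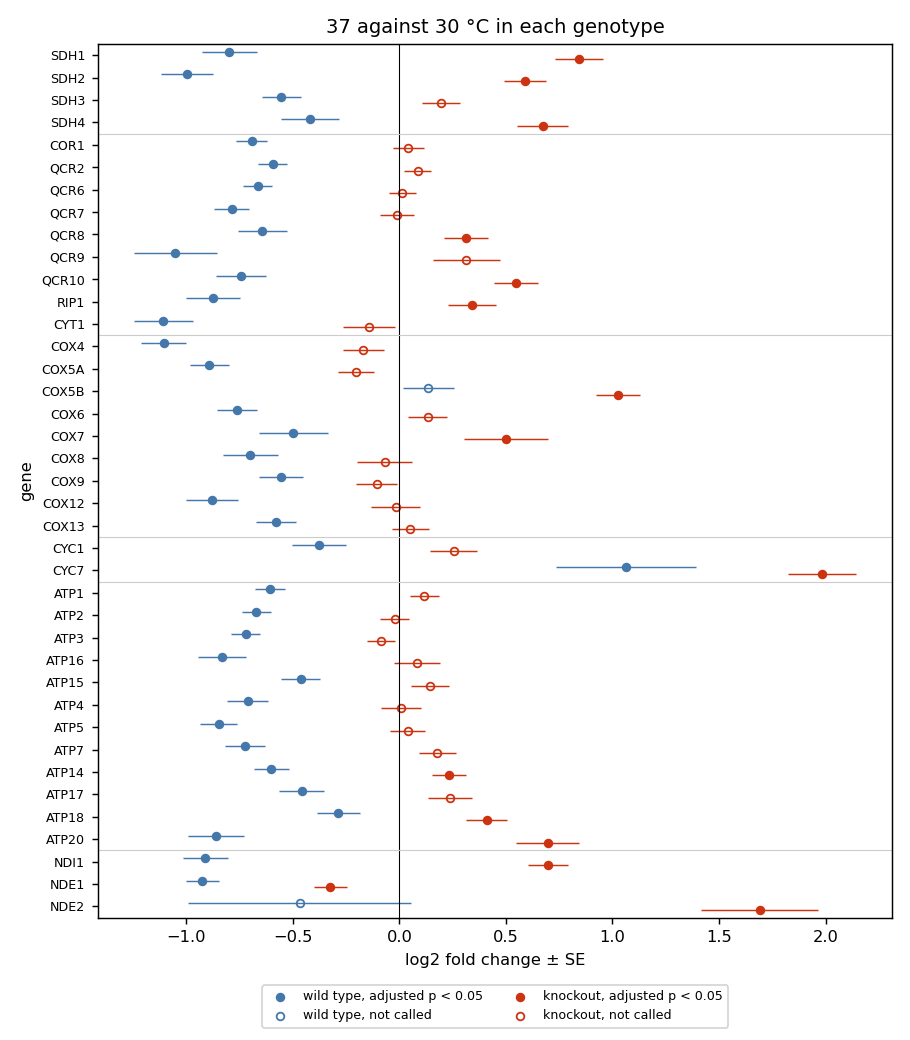
Log2 fold change at 37 against 30 °C for each of the 39 genes, with the SE as a bar, in wild type and in the knockout; filled points passed an adjusted p of 0.05. Nearly all wild-type points lie left of zero, whereas the knockout points lie around zero or to its right, apart from NDE1 at -0.32.

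The difference between the temperature responses was tested directly as an interaction. It was higher in the knockout for 38 of the 39 genes, where 16.4% of all genes tested had a higher and 17.2% a lower interaction. The median log2 difference of the 39 was 0.86, against 0.01 for all genes. It ranged from 0.45 for COX9, subunit VIIa of complex IV, to 2.16 for NDE2. CYC7 alone did not pass (edgeR's quasi-likelihood test, log2 difference 0.92 ± 0.40, adjusted p = 0.093), and it rose with heat in both genotypes. With DESeq2 34 members passed, and leaving out any 1 library left 35 to 38.

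At 30 °C few members passed a difference between the genotypes. In the knockout 1 gene was higher, CYC7, and 8 were lower, where 14.6% of all genes tested were higher and 15% lower. The 8 were COR1, COX6, COX7, COX8, ATP5, ATP14, ATP17 and ATP20, and the median log2 fold change of the 39 was -0.13. COX7 and ATP20 stood furthest below wild type, at -1.27 and -1.39 on the log2 scale, and the other 6 lay between -0.39 and -0.23. COX7, ATP20 and CYC7 kept their calls under every alternative run. The count of 8 fell to 2 without the second wild-type library at 30 °C, 3 without the first knockout library at 30 °C, 5 without the second wild-type library at 37 °C and 3 with DESeq2, and the count of 1 higher rose to 5 without either heated knockout library.

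At 37 °C the knockout was higher in 36 of the 39 genes and lower in none, where 30.5% of all genes tested were higher and 29.2% lower. The median log2 fold change of the 39 was 0.72, against 0.01 for all genes. COX7 (-0.28 ± 0.18), COX8 (0.27 ± 0.13) and ATP20 (0.17 ± 0.14) did not pass. For the count of 0 lower, edgeR, DESeq2 and limma-voom all gave 0, and 0 members were lower at an unadjusted p under 0.05. These comparisons share libraries, so a member low in heated wild type enters the heat response, the genotype comparison at 37 °C and the interaction alike. Set beside unheated wild type with no test, the heated knockout libraries were both above for 16 members, both below for 13 and overlapping for 10, while 42.5% of all genes tested were above and 40% below. The median log2 level of the 39 against the unheated wild-type mean was -0.73 and -0.67 in the heated wild-type libraries and -0.03 and 0.04 in the heated knockout libraries.

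**Figure D3:**
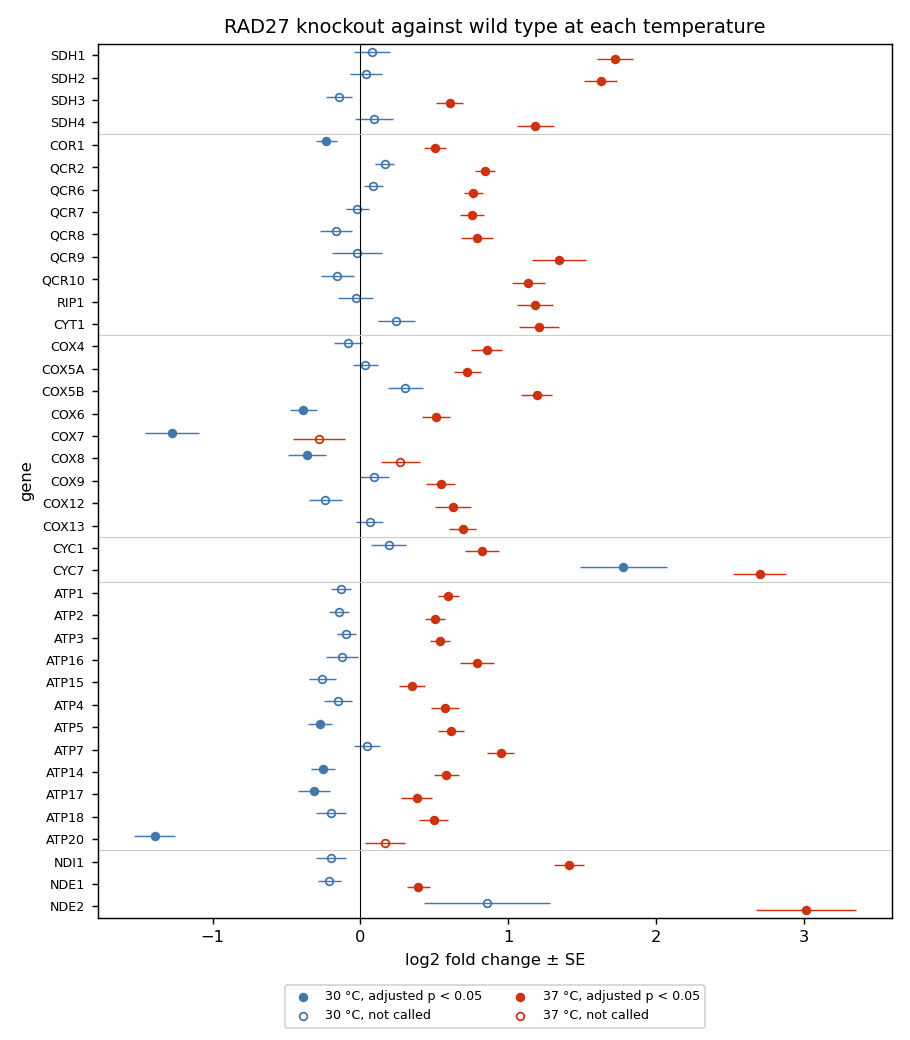
Log2 fold change of the RAD27 knockout against wild type for each of the 39 genes, with the SE as a bar, at 30 °C and at 37 °C; filled points passed an adjusted p of 0.05. At 30 °C most points lie near zero apart from COX7, ATP20, CYC7 and NDE2, the last at 0.86 and not called. At 37 °C all points but that of COX7 lie to the right, up to 3.02 for NDE2.

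Other features of the culture differed between the groups as well. The summed level of 11 genes of glucose-repressed carbon use, such as FBP1 of gluconeogenesis and JEN1, the lactate permease, was 112 and 117 CPM in unheated wild type, 98.0 and 90.2 CPM in heated wild type, 109 and 129 CPM in the unheated knockout, and 223 and 604 CPM in the heated knockout. Of these 11 genes 10 were higher in the knockout at 37 °C, with a median log2 fold change of 1.80. The second heated knockout library stood apart from the first on that list. Of the 39 members 29 were higher in it, by a median of 0.08 on the log2 scale. The share of all genes higher in that library was not counted, so this count cannot be set against it. Ribosomal protein genes drew 14.7% to 15.5% of counts in the 4 unheated libraries and 9.37% to 11.4% in the 4 heated ones. The part of these features in the results was not tested. In RNA from whole cultures, fewer cells that express a gene and less RNA per cell cannot be told apart.

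Electrons enter the chain from NADH through NDI1, which oxidises NADH inside the mitochondrion, and NDE1 and NDE2, which oxidise cytosolic NADH at the outer face of the inner membrane. NDI1 (YML120C, chrXIII:28266-29807, minus strand) stood at 91.9 and 96.2 CPM in unheated wild type, 45.9 and 54.2 CPM in heated wild type, 82.8 and 81.0 CPM in the unheated knockout and 123 and 143 CPM in the heated knockout. Heated wild-type cells had the lowest and heated knockout cells the highest values, and neither overlapped any other group. NDI1 fell with heat in wild type (edgeR's quasi-likelihood test, log2 fold change -0.91 ± 0.11, adjusted p = 4.47e-05) and rose with heat in the knockout (0.70 ± 0.09, adjusted p = 4.05e-05). At 37 °C the knockout was 2.66-fold higher (log2 fold change 1.41 ± 0.10, adjusted p = 2.42e-07), and the log2 difference between the responses was 1.61 ± 0.14, adjusted p = 8.72e-06. At 30 °C the genotypes did not pass a difference (-0.20 ± 0.10, adjusted p = 0.15).

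NDE1, the more abundant external enzyme, stood at 819 and 886 CPM in unheated wild type, 447 and 451 CPM in heated wild type, 725 and 751 CPM in the unheated knockout and 544 and 634 CPM in the heated knockout. It was the member of this class that fell with heat in both genotypes, by 1.90-fold in wild type (edgeR's quasi-likelihood test, -0.93 ± 0.08, adjusted p = 4.67e-06) and 1.25-fold in the knockout (-0.32 ± 0.08, adjusted p = 0.00302; not past the threshold with library size alone). The fall was smaller in the knockout (interaction 0.60 ± 0.11, adjusted p = 0.00152), which was higher at 37 °C (0.39 ± 0.08, adjusted p = 0.000911), and the genotypes did not differ past the threshold at 30 °C (-0.21 ± 0.08, adjusted p = 0.0584). NDE2 (YDL085W, chrIV:303211-304848, plus strand) stood at 4.68 and 2.48 CPM in unheated wild type, 3.03 and 2.08 CPM in heated wild type, 7.02 and 5.88 CPM in the unheated knockout and 15.6 and 25.8 CPM in the heated knockout. Both heated knockout libraries lay above the other 6, and the wild-type groups overlapped. The 2 heated knockout libraries themselves differed by 0.73 on the log2 scale. NDE2 rose with heat in the knockout (1.69 ± 0.28, adjusted p = 0.000189) and was higher there at 37 °C (3.02 ± 0.34, adjusted p = 8.92e-06), the largest difference of the 39. The difference at 30 °C (0.86 ± 0.43, adjusted p = 0.147) and the heat response of wild type (-0.47 ± 0.52, adjusted p = 0.534) did not pass. Its interaction passed (2.16 ± 0.61, adjusted p = 0.0157) but was lost without the first wild-type library at 30 °C or the second at 37 °C.

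Succinate dehydrogenase feeds electrons from succinate to ubiquinone and is also an enzyme of the citric acid cycle. All 4 subunits fell with heat in wild type and were higher in the knockout at 37 °C, and all 4 interactions passed, from 0.75 for SDH3 to 1.64 for SDH1. SDH1 (YKL148C, chrXI:169207-171129, minus strand) stood at 95.7 and 107 CPM in unheated wild type, 59.7 and 56.8 CPM in heated wild type, 102 and 113 CPM in the unheated knockout and 166 and 218 CPM in the heated knockout. The heated knockout libraries lay above all others, the heated wild-type libraries below all others, and the 2 unheated groups overlapped. SDH1 fell with heat in wild type (edgeR's quasi-likelihood test, -0.80 ± 0.13, adjusted p = 0.000469), rose with heat in the knockout (0.84 ± 0.11, adjusted p = 3.62e-05) and was 3.30-fold higher there at 37 °C (1.72 ± 0.12, adjusted p = 2.12e-07). The heated knockout replicates differed by 0.39 on the log2 scale, less than these 2 changes. The genotypes did not differ past the threshold at 30 °C (0.08 ± 0.12, adjusted p = 0.658).

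SDH2, the iron-sulfur subunit, stood at 53.3 and 56.1 CPM in unheated wild type, 26.9 and 27.9 CPM in heated wild type, 59.1 and 53.5 CPM in the unheated knockout and 77.8 and 91.3 CPM in the heated knockout. Its order of groups was that of SDH1, with heated wild type below and heated knockout above the unheated libraries. It had the largest wild-type fall of this enzyme (edgeR's quasi-likelihood test, -0.997 ± 0.12, adjusted p = 5.76e-05), rose with heat in the knockout (0.59 ± 0.10, adjusted p = 0.000246) and was 3.09-fold higher there at 37 °C (1.63 ± 0.11, adjusted p = 1.68e-07). The membrane anchor SDH4 rose with heat in the knockout (0.67), and the other anchor, SDH3, did not pass (0.19). The wild-type fall of SDH4 (-0.42) no longer passed without any 1 of the 4 wild-type libraries, with library size alone or with DESeq2. None of the 4 passed a difference between genotypes at 30 °C, where their values lay between -0.14 and 0.09, and an unadjusted p under 0.05 was not reached by any of them.

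Complex III takes electrons from ubiquinol to cytochrome c. All 9 subunits fell with heat in wild type and all 9 were higher in the knockout at 37 °C. CYT1, cytochrome c1, stood at 111 and 139 CPM in unheated wild type, 50.4 and 65.5 CPM in heated wild type, 144 and 151 CPM in the unheated knockout and 121 and 147 CPM in the heated knockout. Both heated wild-type libraries lay well below the other 6. CYT1 had the largest wild-type fall of the 39 genes together with COX4 of complex IV (edgeR's quasi-likelihood test, -1.11 ± 0.14, adjusted p = 7.27e-05); in the knockout its change did not pass (-0.14 ± 0.12, adjusted p = 0.339).

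QCR9, a small subunit, stood at 18.1 and 26.4 CPM in unheated wild type, 11.2 and 10.4 CPM in heated wild type, 21.1 and 23.0 CPM in the unheated knockout and 26.9 and 27.8 CPM in the heated knockout. Heated wild type was again lowest, and the knockout groups did not overlap with it. QCR9 was 2.54-fold higher in the knockout at 37 °C (edgeR's quasi-likelihood test, 1.34 ± 0.18, adjusted p = 4.14e-05), the largest such difference in complex III, with an interaction of 1.37 ± 0.25, adjusted p = 0.00155. QCR10, another small subunit, stood at 36.4 and 38.4 CPM in unheated wild type, 22.4 and 22.3 CPM in heated wild type, 31.8 and 35.3 CPM in the unheated knockout and 49.2 and 48.9 CPM in the heated knockout. The heated knockout libraries were the highest and the heated wild-type libraries the lowest. QCR10 rose with heat in the knockout (0.55 ± 0.10, adjusted p = 0.000554), as did QCR8 (0.31) and RIP1, the Rieske iron-sulfur protein (0.34). The call of QCR8 was lost with DESeq2, with only the libraries compared, and without the second unheated or first heated knockout library. That of RIP1 was lost with DESeq2 and without the first unheated or second heated knockout library. COR1, a core subunit, was the only one of the 9 that passed a difference at 30 °C. It stood at 360.2 and 371 CPM in unheated wild type, 224 and 229 CPM in heated wild type, 297 and 326 CPM in the unheated knockout and 306 and 336 CPM in the heated knockout. The difference at 30 °C was small (-0.23 ± 0.07, adjusted p = 0.0291) and no longer passed under 7 of 18 alternatives, among them leaving out either unheated wild-type library. QCR2, the other core subunit, QCR6, the hinge protein, and QCR7 fell with heat in wild type (-0.59, -0.66 and -0.79). Their heat responses in the knockout did not pass the threshold (0.08, 0.01 and -0.01).

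Cytochrome c carries electrons from complex III to complex IV, and yeast has an aerobic isoform, CYC1, and a second isoform, CYC7, known for expression in low oxygen and under stress. CYC7 (YEL039C, chrV:79636-79977, minus strand) stood at 2.01 and 2.48 CPM in unheated wild type, 5.12 and 4.34 CPM in heated wild type, 7.21 and 8.35 CPM in the unheated knockout and 29.5 and 32.2 CPM in the heated knockout. The 4 groups did not overlap, and unheated wild type was lowest and the heated knockout highest. CYC7 was the one member higher in the knockout at both temperatures, by 3.43-fold at 30 °C (edgeR's quasi-likelihood test, 1.78 ± 0.29, adjusted p = 0.000811) and 6.51-fold at 37 °C (2.70 ± 0.18, adjusted p = 1.22e-07). It rose with heat in wild type (1.06 ± 0.33, adjusted p = 0.0255) and in the knockout (1.98 ± 0.16, adjusted p = 5.23e-07). CYC1 stood at 37.5 and 39.8 CPM in unheated wild type, 26.5 and 33.0 CPM in heated wild type, 42.9 and 45.5 CPM in the unheated knockout and 54.0 and 51.6 CPM in the heated knockout. It fell with heat in wild type (-0.38 ± 0.13, adjusted p = 0.035, lost without the first heated or either unheated wild-type library), did not pass in the knockout (0.26 ± 0.11, adjusted p = 0.0605) or between genotypes at 30 °C (0.19 ± 0.12, adjusted p = 0.24), and was higher in the knockout at 37 °C (0.83 ± 0.12, adjusted p = 5.8e-05). Its interaction passed (0.63 ± 0.17, adjusted p = 0.0113) but was lost with DESeq2 and without the second unheated or first heated wild-type library. As a share of the summed level per kilobase of both isoforms, CYC7 made up 4.92% and 5.66% in unheated wild type, 15.7% and 11.2% in heated wild type, 14.0% and 15.03% in the unheated knockout and 34.5% and 37.6% in the heated knockout. The share was thus lowest in unheated wild type and highest in the heated knockout, with the other groups between and overlapping each other.

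Complex IV, cytochrome c oxidase, carries 1 of 2 interchangeable forms of subunit V, the aerobic COX5A or the hypoxic COX5B. COX5A stood at 100.4 and 119 CPM in unheated wild type, 58.6 and 59.6 CPM in heated wild type, 112 and 113 CPM in the unheated knockout and 96.1 and 99.0 CPM in the heated knockout. Heated wild type lay below the other groups. COX5A fell with heat in wild type (edgeR's quasi-likelihood test, -0.89 ± 0.09, adjusted p = 1.97e-05), did not pass in the knockout (-0.20 ± 0.09, adjusted p = 0.0568) or at 30 °C between genotypes (0.03 ± 0.09, adjusted p = 0.795), and was higher in the knockout at 37 °C (0.72 ± 0.09, adjusted p = 2.45e-05; interaction 0.69 ± 0.13, adjusted p = 0.00148). COX5B (YIL111W, chrIX:155222-155765, plus strand) stood at 40.4 and 44.6 CPM in unheated wild type, 48.5 and 44.9 CPM in heated wild type, 48.7 and 56.2 CPM in the unheated knockout and 99.2 and 114 CPM in the heated knockout. The heated knockout libraries lay clear above the other 6, and the wild-type groups lay close together. COX5B rose with heat in the knockout (1.03 ± 0.10, adjusted p = 3.1e-06) and was 2.29-fold higher there at 37 °C (1.19 ± 0.10, adjusted p = 1.23e-06), with no passing change with heat in wild type (0.14 ± 0.12, adjusted p = 0.424) or between genotypes at 30 °C (0.30 ± 0.12, adjusted p = 0.0711), and an interaction of 0.89 ± 0.16, adjusted p = 0.00133.

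COX5B made up 28.9% and 27.6% of the summed COX5A and COX5B level per kilobase in unheated wild type, 45.6% and 43.3% in heated wild type, 30.6% and 33.5% in the unheated knockout and 51.1% and 53.9% in the heated knockout. In both genotypes the heated shares lay above the unheated ones. In wild type the shift came with a fall of COX5A and no passing change of COX5B. In the knockout it came with a rise of COX5B, while a smaller fall of COX5A came close to the threshold (-0.20). That fall did not pass in the edgeR quasi-likelihood test (adjusted p = 0.0568). It passed under 5 of 18 alternatives and changed sign under 1. NDE2 stayed a small part of the NDE1 and NDE2 sum, at 0.584% and 0.286% in unheated wild type, 0.692% and 0.470% in heated wild type, 0.985% and 0.799% in the unheated knockout and 2.86% and 4.01% in the heated knockout. These shares are descriptions with no test of their own.

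**Figure D4:**
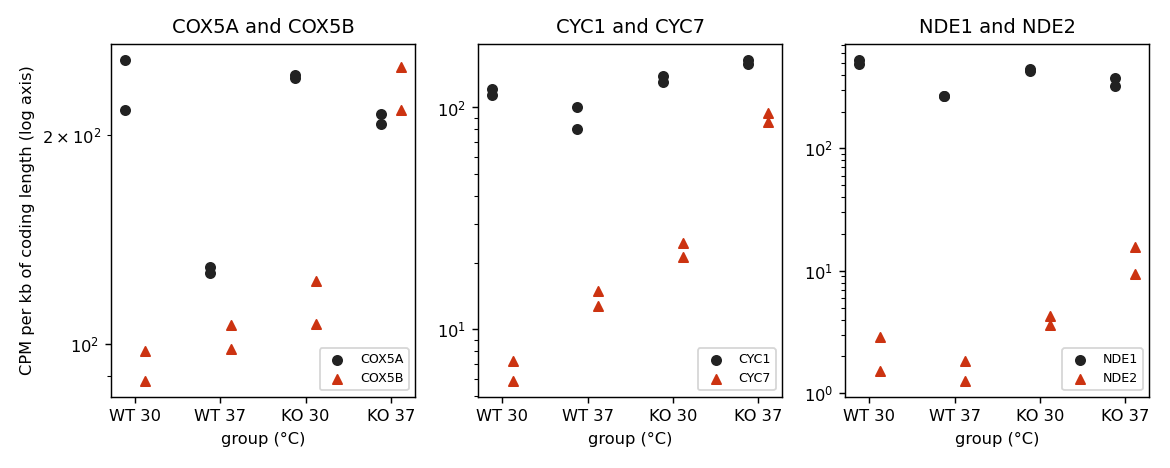
Level of both isoforms of each pair (COX5A and COX5B, CYC1 and CYC7, NDE1 and NDE2) in each of the 8 libraries, as CPM per kilobase of coding length on log axes that differ between panels, by genotype (WT, wild type; KO, RAD27 knockout) and temperature. In all 3 panels the second isoform (triangles) is highest in the 2 heated knockout libraries, where COX5B makes up 51.1% and 53.9% of its pair.

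COX4, subunit IV, stood at 79.2 and 86.1 CPM in unheated wild type, 35.4 and 41.3 CPM in heated wild type, 73.5 and 82.5 CPM in the unheated knockout and 68.1 and 70.7 CPM in the heated knockout. Heated wild type was lowest and did not overlap the other groups. COX4 fell with heat in wild type (edgeR's quasi-likelihood test, -1.11 ± 0.11, adjusted p = 1.2e-05), and its change in the knockout did not pass (-0.17 ± 0.10, adjusted p = 0.149). COX7, subunit VII, stood at 22.8 and 22.9 CPM in unheated wild type, 17.8 and 14.5 CPM in heated wild type, 10.7 and 8.16 CPM in the unheated knockout and 12.4 and 14.2 CPM in the heated knockout. It departed from the rest of the enzyme, with the unheated knockout well below both wild-type groups. The heated knockout lay only just below heated wild type, at 14.2 against 14.5 CPM in the nearest libraries. Raw counts of COX7 in those libraries were 84 and 77, so that order depends on the scaling. COX7 was 2.42-fold lower in the knockout at 30 °C (-1.27 ± 0.18, adjusted p = 0.000333) and did not pass at 37 °C (-0.28 ± 0.18, adjusted p = 0.191). It fell with heat in wild type (-0.50 ± 0.16, adjusted p = 0.0334) and rose with heat in the knockout (0.50 ± 0.20, adjusted p = 0.0437), but these calls were lost under 5 and 10 alternatives, the first without either unheated or the second heated wild-type library, the second without either unheated wild-type library or the second library of either knockout group. Its interaction was the largest in complex IV (1.00 ± 0.26, adjusted p = 0.01), and was lost only with DESeq2. COX6, subunit VI, and COX8, subunit VIII, were also lower in the knockout at 30 °C (-0.39 and -0.36); the call of COX8 was lost under 7 alternatives and that of COX6 without the second unheated wild-type library. COX9, COX12 and COX13 fell with heat in wild type (-0.55, -0.88 and -0.58), and their heat responses in the knockout did not pass (-0.11, -0.02 and 0.05).

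The ATP synthase couples proton flow through its membrane part, Fo, to ATP formation in F1, with a peripheral stalk that holds the parts together. All 12 subunits fell with heat in wild type and had a higher interaction, and 11 were higher in the knockout at 37 °C. The 5 F1 subunits ATP1, ATP2, ATP3, ATP16 and ATP15 fell with heat in wild type by values from -0.83 for ATP16 to -0.46 for ATP15, and none of the 5 passed in the knockout, where they lay between -0.09 and 0.14 and none had an unadjusted p under 0.05. Of the stalk subunits, ATP7 stood at 157 and 177 CPM in unheated wild type, 96.5 and 106 CPM in heated wild type, 158 and 187 CPM in the unheated knockout and 197 and 194 CPM in the heated knockout. Heated wild type was lowest, and the heated knockout libraries lay above the unheated ones. ATP7 was 1.93-fold higher in the knockout at 37 °C (edgeR's quasi-likelihood test, 0.95 ± 0.09, adjusted p = 2.63e-06), the largest such difference among the 12. The stalk subunits ATP4, ATP5 and ATP14 were higher by 0.57, 0.61 and 0.58. ATP14 also rose with heat in the knockout (0.23), a call lost without the first unheated or second heated knockout library and with 2 other alternatives.

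ATP20, the Fo subunit g, known for a part in holding ATP synthase dimers together (YPR020W, chrXVI:599870-600217, plus strand), stood at 45.9 and 42.5 CPM in unheated wild type, 22.5 and 26.04 CPM in heated wild type, 15.2 and 18.4 CPM in the unheated knockout and 25.6 and 28.9 CPM in the heated knockout. Unheated wild type was highest and the other 3 groups were lower, with the unheated knockout lowest. ATP20 was 2.62-fold lower in the knockout at 30 °C (edgeR's quasi-likelihood test, -1.39 ± 0.14, adjusted p = 2.37e-05), the largest fall there among the 39. It fell with heat in wild type (-0.86 ± 0.13, adjusted p = 0.00031) and rose with heat in the knockout (0.70 ± 0.15, adjusted p = 0.00135), and at 37 °C the difference between genotypes did not pass (0.17 ± 0.14, adjusted p = 0.313). Its interaction (1.56 ± 0.20, adjusted p = 0.000125) was the largest of the 12. Both its calls in the knockout and its fall in wild type held under every alternative run. The Fo subunits ATP17 (f) and ATP18 (i/j) fell with heat in wild type (-0.46 and -0.29) and were higher in the knockout at 37 °C (0.38 and 0.50), and ATP18 rose with heat there (0.41). The wild-type fall of ATP18 was lost under 9 of 18 alternatives, including the omission of each wild-type library in turn, and that of ATP17 without the first library of either wild-type group. The difference of ATP17 at 37 °C was also lost without the first heated wild-type library. Neither ATP17 nor the stalk subunits ATP5 and ATP14 kept their small falls in the unheated knockout (-0.31, -0.27 and -0.25) with DESeq2.

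The mitochondrial genome encodes the remaining core subunits of these complexes, but yeast mitochondrial transcripts lack the poly(A) tails that mRNA library kits select. COX1, the catalytic subunit of complex IV, had 22 and 40 counts in unheated wild type, 35 and 34 in heated wild type, 7 and 17 in the unheated knockout and 13 and 32 in the heated knockout. The other 6 subunits had 0 to 6 counts in any library and were not tested. COX1 was lower in the knockout at 30 °C (edgeR's quasi-likelihood test, -1.52 ± 0.45, adjusted p = 0.0234), lost without the second wild-type or the first knockout library at 30 °C and at -2.27 without the second knockout library.

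Other genes were counted from 13 lists, among them the mitochondrially encoded subunits and the glucose-repressed genes described above. Among 9 regulators, 3 were higher and 3 lower in the knockout at 37 °C, near the 30.5% higher and 29.2% lower of all genes tested, with a median log2 fold change of -0.01. HAP4, the activating subunit of the CCAAT-binding complex, stood at 272 and 300.3 CPM in unheated wild type, 242 and 248 CPM in heated wild type, 221 and 239.9 CPM in the unheated knockout and 276 and 346 CPM in the heated knockout. The heated knockout libraries reached both above and into the range of unheated wild type, and the other groups lay lower. HAP4 rose with heat in the knockout (edgeR's quasi-likelihood test, 0.43 ± 0.10, adjusted p = 0.00185), did not pass in wild type (-0.23 ± 0.10, adjusted p = 0.0939), was lower in the knockout at 30 °C (-0.31 ± 0.10, adjusted p = 0.0293; lost without the second unheated wild-type or either unheated knockout library) and higher at 37 °C (0.35 ± 0.10, adjusted p = 0.00735; lost without the first heated wild-type or the second heated knockout library), with an interaction of 0.66 ± 0.14, adjusted p = 0.00316.

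The heme-responsive activator HAP1 did not pass in any comparison, with log2 fold changes between -0.08 and 0.05, but with library size alone it passed with heat in the knockout, at 0.226 (edgeR, adjusted p = 0.0336). ROX1, the repressor of hypoxic genes, fell with heat in the knockout (edgeR's quasi-likelihood test, -0.50 ± 0.07, adjusted p = 5.3e-05) and was lower there at 37 °C (-0.48 ± 0.07, adjusted p = 8.72e-05), while its wild-type response (-0.12 ± 0.07, adjusted p = 0.21) and the genotypes at 30 °C (-0.09 ± 0.07, adjusted p = 0.346) did not pass. MOT3, which represses hypoxic genes together with Rox1, was lower in all 4 comparisons, at -0.30 with heat in wild type, -0.46 with heat in the knockout, -0.42 between genotypes at 30 °C and -0.58 at 37 °C, and its interaction did not pass (-0.16). Its wild-type call was lost with library size alone and without the second library of either wild-type group. CAT8, an activator of gluconeogenic genes, was higher in the knockout at 37 °C (edgeR's quasi-likelihood test, 1.88 ± 0.30, adjusted p = 0.000178; 1.21 without the second heated knockout library), and MIG1, a repressor of glucose-repressed genes, was lower (-0.76 ± 0.09, adjusted p = 8.72e-06).

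Another 5 subunits of these complexes were counted separately. With heat in wild type 1 fell and 4 did not pass (median -0.34), where 17.1% of all genes tested fell. At 37 °C 3 were higher in the knockout, where 30.5% of all genes were. The interaction was higher for 2 and did not pass for 3, where 16.4% of all genes had a higher one. ATP19, the Fo subunit k, fell with heat in wild type (edgeR's quasi-likelihood test, -0.85 ± 0.11, adjusted p = 0.000125). Its interaction was higher (1.03 ± 0.16, adjusted p = 0.000465). At 30 °C it was lower in the knockout (-0.52 ± 0.11, adjusted p = 0.00366), a call lost without the first unheated wild-type library. COX26, a small complex IV protein, had 6 counts in each heated wild-type library and 59 and 151 in the heated knockout, where it was higher (3.99 ± 0.51, adjusted p = 2.86e-05; 3.21 without the second heated knockout library). INH1, the inhibitor of ATP hydrolysis by the ATP synthase, stood at 33.7 and 45.4 CPM in unheated wild type, 31.1 and 31.5 CPM in heated wild type, 35.9 and 47.3 CPM in the unheated knockout and 55.1 and 58.2 CPM in the heated knockout. Its highest values were in the heated knockout. INH1 rose with heat in the knockout (edgeR's quasi-likelihood test, 0.45 ± 0.14, adjusted p = 0.0158; lost with DESeq2 and without the first unheated knockout library) and was higher there at 37 °C (0.86 ± 0.15, adjusted p = 0.000297), and did not pass in wild type (-0.34 ± 0.16, adjusted p = 0.121) or at 30 °C (0.07 ± 0.15, adjusted p = 0.772). Of 14 ATP synthase assembly factors and inhibitors 7 were higher at 37 °C in the knockout, led by STF2 (2.80) and STF1 (1.51).

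Of 29 cytochrome oxidase assembly and translation factors, 4 rose with heat in wild type and no fall passed, where 15.7% of all genes tested rose and 17.1% fell, with a median log2 fold change of 0.09. Of the same 29, 16 were higher and 2 lower in the knockout at 37 °C, with the largest change for SHY1 (1.09). Of 11 assembly factors of the bc1 complex and cytochrome c, 5 were higher and 1 lower. Of 6 other dehydrogenases that feed the chain, all 6 were higher in the knockout at 37 °C, with PUT1, proline dehydrogenase (2.31), and CYB2, L-lactate dehydrogenase (1.67), leading, and 1 rose with heat in wild type. Of 7 succinate dehydrogenase assembly factors and paralogs 6 were higher, led by SDH9 (2.98). Against all genes tested, of which 30.5% were higher and 29.2% lower at 37 °C, these list counts are descriptions with no set test.

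**Figure D5:**
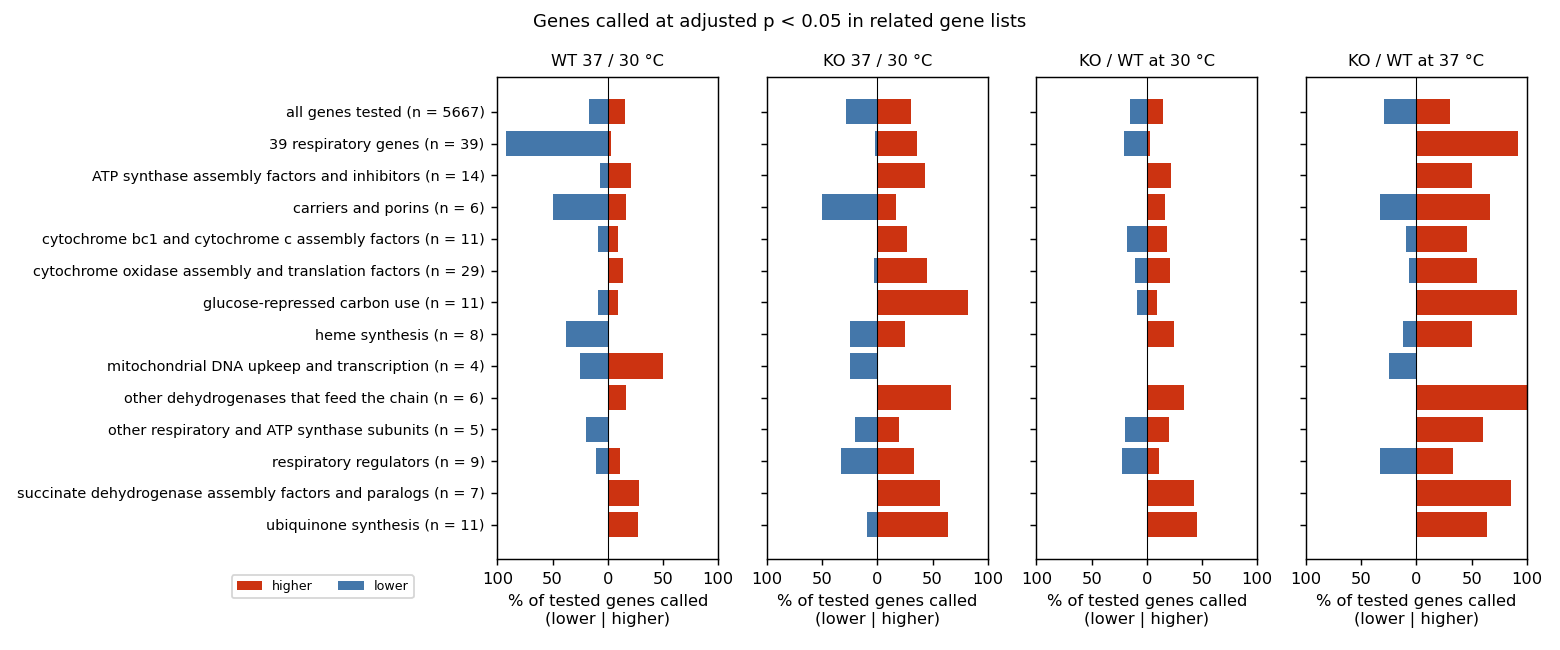
Share of the tested genes of each list called higher (red, to the right) or lower (blue, to the left) at an adjusted p under 0.05, in percent, in 4 comparisons (WT, wild type; KO, RAD27 knockout), with the 39 genes and all genes tested in the top rows. The bar of the 39 genes lies almost wholly to the left with heat in wild type and to the right in the knockout at 37 °C.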

How the data were processed

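The aligner STAR, the read counter HTSeq and the builds R64 and sacCer3 are named, with no order of steps, per the submitters' processing notes; versions, strand use and treatment of multi-mapped reads were not given in the sources used here. The deposited values are raw counts of reads per gene, whole numbers for 6692 genes in 8 libraries of 4734266 to 5588983 counts, made by the authors from mRNA libraries (Kapa mRNA HyperPrep), per the labels' protocols. Of the systematic names, 6008 were found in the R64 annotation; the 684 that were not accounted for 0.164% of counts.

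The quasi-likelihood F test of edgeR 4.0.16, run in R 4.3.3, was fitted to the counts of all 8 libraries, with 1 coefficient per group, no block, TMM scaling and filterByExpr (minimum count 10, minimum total 15), which kept 5667 genes. In each of 5 comparisons, Benjamini-Hochberg adjustment ran over these genes, and a call needed an adjusted p under 0.05. Each SE was obtained by dividing the size of the log2 fold change by the square root of the F statistic. There were 4 residual degrees of freedom, and the estimated biological variation was 6.19%. The spread of a gene was shared over all groups, although the libraries of a group differed most in the heated knockout. A chi-square of the counts within a group, per degree of freedom, was 8.48 there and 3.94 in the unheated knockout. It was 2.50 in unheated and 1.84 in heated wild type. How far this moved the SE of each comparison was not tested. A floor of 3 counts equals 0.537 to 0.634 CPM, depending on the library, and covers counting error only. The code was tested on simulated data.

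The members and the 13 gene lists were chosen with earlier results of these data known. Values in every library, with log2 fold change, SE and adjusted p, are given for the member with the largest called change in each class and comparison and for the isoform pairs with NDI1. Of the lists, HAP4, HAP1, ROX1, MOT3 and INH1 are named whether or not they pass, and otherwise at most the 2 members with the largest called change in a comparison; COX1 is the one tested gene of its list. Copies were searched with blastn 2.17.0, and motifs in the R64 genome sequence of RefSeq. The alternatives tried were DESeq2 1.42.0, limma-voom (limma 3.58.1) and the older quasi-likelihood form as tests; scaling by library size alone, by median-of-ratios factors or by TMM computed without ribosomal protein genes; a filter of 5 CPM in at least 2 libraries, or none; a replicate block; a fit to the compared libraries alone; and leaving out each library.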

Additional observations from a re-analysis of the deposited data

Results flagged for a closer look

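The values below are log2 differences between the 2 temperature responses, knockout minus wild type, that passed edgeR's quasi-likelihood interaction test, and each is listed because the response to heat differed between the genotypes. All but CYC7 of the 39 members are among them. No explanation was weighed.

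Among the NADH dehydrogenases the difference was 1.61 for NDI1, 0.60 for NDE1 and 2.16 for NDE2. For the 4 succinate dehydrogenase subunits it was 1.64 for SDH1, 1.59 for SDH2, 0.75 for SDH3 and 1.09 for SDH4. In complex III the core subunits COR1 and QCR2 stood at 0.74 and 0.68, QCR6 at 0.68, QCR7 at 0.78, QCR8 at 0.96, QCR9 at 1.37 and QCR10 at 1.29. The redox subunits RIP1 and CYT1 of that complex stood at 1.22 and 0.97, and CYC1 at 0.63.

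In complex IV the values were 0.94 for COX4, 0.69 for COX5A, 0.89 for COX5B, 0.90 for COX6 and 1.00 for COX7. The other complex IV subunits had 0.63 for COX8, 0.45 for COX9, 0.86 for COX12 and 0.63 for COX13. In the F1 part of the ATP synthase the values were 0.72 for ATP1, 0.65 for ATP2, 0.64 for ATP3, 0.91 for ATP16 and 0.61 for ATP15. The stalk subunits had 0.72 for ATP4, 0.89 for ATP5, 0.90 for ATP7 and 0.83 for ATP14. In Fo they were 0.69 for ATP17, 0.70 for ATP18 and 1.56 for ATP20, the last of which stood at -1.39 against wild type in the unheated knockout.

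Of the other lists, the difference was 0.66 for HAP4, -0.38 for ROX1, 2.19 for CAT8, 0.79 for INH1 and 2.36 for STF2. It was 1.03 for ATP19, 3.53 for COX26 and 2.23 for CYB2. Without the second heated knockout library CAT8 took 1.52 and COX26 2.76. The call of COX26 was lost under 5 alternatives and that of COX9 under 6, including the omission of each wild-type library in turn or of the first unheated knockout library. The calls of COX8 and INH1 were lost under 5 and 4, among them leaving out the second unheated wild-type, either heated wild-type or the first unheated knockout library. ROX1 lost its call with library size alone and without the second unheated wild-type library. ROX1 alone of these 46 values was negative, but of the lists only the named genes are printed here. Over the full lists a lower interaction passed for 2 of 9 regulators and 2 of 6 carriers and porins. It also passed for 1 of 8 genes of heme synthesis and 1 of 4 of mitochondrial DNA upkeep and transcription. In the same lists, in that order, 2, 2, 1 and 0 had a higher one. Of all genes tested, 16.4% had a higher and 17.2% a lower interaction.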

How the results depend on the processing

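Over all comparisons, 3641 values of single genes were recomputed under alternatives, of which 3458 kept their direction and side of the threshold, 140 lost the threshold, 24 gained it and 19 changed sign. With heat in wild type, the 1 member higher became 0 with DESeq2 and 0 to 1 with a library left out, and the 36 lower became 31 to 36. With heat in the knockout, the 14 higher became 31 and the 1 lower 0 with library size alone; 2 were lower with median-of-ratios factors and with TMM without ribosomal protein genes, and leaving out a library gave 11 to 15 higher and 1 to 2 lower. Between genotypes at 30 °C, the 8 lower became 4 with library size alone, 3 with DESeq2 and 2 to 10 with a library left out, and the 1 higher became 4 with only the libraries compared and 1 to 5 with a library left out. At 37 °C the 36 higher lay between 34 and 37 throughout. With library size alone the median of all genes moved to 0.13 with heat in wild type, 0.14 between genotypes at 37 °C and 0.12 for the interaction, and the split of higher and lower calls over all genes moved from 891 and 967 to 1497 and 596, from 1731 and 1656 to 2182 and 1123, and from 930 and 972 to 1197 and 604. Changes of sign concerned values that had not passed with TMM. HAP1 took 0.059 with heat in wild type with library size alone (-0.136 to 0.017 with a library left out), and with heat in the knockout 0.226 with library size alone, which passed (adjusted p = 0.0336), 0.004 with at least 5 CPM and -0.16 to 0.155 with a library left out. Between genotypes HAP1 took -0.248 to 0.067 at 30 °C with a library left out, and at 37 °C 0.095 with library size alone and -0.128 to 0.025 with a library left out; its interaction took -0.094 to 0.222 with a library left out. ROX1 took 0.005 with heat in wild type with library size alone, NDE2 -0.871 to 0.043 there with a library left out, and COX5A 0.035 with heat in the knockout with library size alone and -0.079 to 0.16 at 30 °C with a library left out. INH1 took -0.149 to 0.303 at 30 °C with a library left out. The cause was not tested.

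The labels do not say that a replicate number marks a shared culture or day, so the numbers were not taken as pairs. Deviations of same-numbered libraries from their group means had correlations of -0.11 to 0.11 over the 6 pairs of groups. Within a genotype these were 0.01 in wild type and 0.11 in the knockout. The block below is 1 replicate effect shared by both genotypes, and a pairing within each genotype was not fitted. With the replicate number as a block, 1 member was higher and 36 lower with heat in wild type, 14 and 2 with heat in the knockout, 3 and 10 between genotypes at 30 °C, 36 and 0 at 37 °C, and 38 and 0 for the interaction. A crossed block of the 4 libraries at 37 °C, added after seeing the data, gave 37 higher.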

Other observations

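Genes that supply cofactors, carriers and helper proteins to the chain were counted beside its subunits. Of all genes tested, 15.7% rose and 17.1% fell with heat in wild type, and 30.5% were higher and 29.2% lower in the knockout at 37 °C. The counts below are descriptions with no set test. Of 11 genes of ubiquinone synthesis 3 rose with heat in wild type (median log2 fold change 0.08), and 7 were higher in the knockout at 37 °C (median 0.40). Of 8 genes of heme synthesis 3 fell with heat in wild type (median -0.23), and 4 were higher and 1 lower in the knockout at 37 °C (median 0.22). Of 6 carriers and porins, 3 fell and 1 rose with heat in wild type, where AAC1, an ADP/ATP carrier, changed by -0.82 and POR1, the main outer membrane porin, by 0.71 (edgeR's quasi-likelihood test, adjusted p under 0.05 for both). The call of AAC1 was lost without the first heated wild-type library. In the knockout at 37 °C, 4 of the 6 carriers and porins were higher and 2 lower (median 0.28). Of 4 genes of mitochondrial DNA upkeep and transcription 2 rose and 1 fell with heat in wild type. Among the cytochrome oxidase factors, the copper chaperone COX17 and the chaperone COX20 rose with heat in wild type (0.85 and 0.74) and were higher in the unheated knockout (0.79 and 0.84). The call of COX17 in the unheated knockout was lost without the second unheated wild-type library.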
